A study of Mus musculus with 8 samples.

Results

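The collagen genes outside type IV were taken as all genes whose symbol is Col, digits, a, digits, without those that begin with Col4a. There were 38 such genes among the 22180 genes that had a probe set of their own, and each was read from its probe set with the highest mean. RNA of the whole kidney came from mice 2 months old, and each mouse had an array of its own. Of the 8 mice, 3 were Col4a3-/-OPN-/- (double mutant, lacking the α3 chain of type IV collagen and osteopontin), 3 were Col4a3-/- (single mutant, lacking the α3 chain alone) and 2 were wild type. Loss of Col4a3 in mice models Alport syndrome, a hereditary disease of the glomerular basement membrane, and both mutant groups carry it. The sources used here give no strain. Whole kidney holds every cell type of the organ, so more cells of a type and more RNA per cell cannot be told apart.

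Collagens are extracellular proteins of 3 chains wound into a triple helix. Fibrillar collagens, led by types I and III, form the banded fibrils of connective tissue, and in a scarring kidney they are laid down by fibroblasts and myofibroblasts between the tubules. FACIT collagens sit on the surface of fibrils, type VI forms beaded filaments around cells, type VIII forms networks under endothelium, and the multiplexins XV and XVIII belong to basement membrane zones. Type VII anchors epithelium, and a further class crosses the cell membrane.

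The deposited values are log2 expression values, so a difference of 1 is a factor of 2 in signal. The array medians ranged over 5.18 to 5.25. All 10 proximal tubule markers were above the filter described below, and no marker of cartilage and bone, skeletal muscle or adrenal gland was. Sox9, on the cartilage and bone list, was above its level on some mutant arrays. It measured 6.50, 7.07 and 7.78 in double mutants, 5.54, 8.09 and 6.07 in single mutants and 5.49 and 6.20 in wild type. Col4a3 itself measured 6.82, 6.13 and 7.6 in double mutants, 7.65, 7.67 and 6.60 in single mutants and 8.77 and 8.42 in wild type. Xist and 3 Y-linked genes read both wild type mice, single mutant 2 and double mutant 3 as male and the other 4 mice as female, so genotype and sex were in part confounded. Each comparison is therefore given from 2 fits, genotype alone and genotype with a term for sex. Single mutant 2 stood apart from its group, with correlations of 0.865 and 0.839 with the other single mutants over 7145 genes, against 0.959 between those 2 mice. Double mutant 3 also stood apart, with 0.895 and 0.908 against 0.965 between the other double mutants, and its closest array was single mutant 2 at 0.948. Both were read as the male of their group. Counts of calls are given below without each of these arrays and without either wild type array, a choice made in part after seeing the data.

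Of the 38 collagen genes, 12 were higher on every one of the 6 mutant arrays than on both wild type arrays. They were Col1a1, Col1a2, Col3a1 and Col5a1 of the fibrillar class, Col12a1, Col14a1 and Col16a1 of the FACIT class, Col6a1, Col6a2 and Col6a3 of the beaded filaments and both multiplexins, Col15a1 and Col18a1. Over all 22180 genes 9.24 percent were higher in this sense. Col6a6 and Col22a1 were lower on all 6 mutant arrays, where 11.7 percent of all genes were. The same 12 genes were above wild type after quantile normalization, median centring and cyclic loess, and Col6a6 and Col22a1 were below it under each of these scalings. Set against wild type separately, double mutants did not overlap and were higher for 15 members (15 percent of all genes) and lower for 3 (19.1 percent). Single mutants did so for 13 members higher (15.5 percent of all genes) and 7 lower (19.2 percent).

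The members fell into a few that varied widely and many that hardly varied. The range over the 8 arrays was above 1 for 13 members, between 0.5 and 1 for 4, and 0.5 or less for 21. Those 21 all had low signal, with means from 4.65 for Col10a1 to 6.38 for Col9a2, where the array medians were 5.18 to 5.25. A small range at such signal does not show that a transcript was present at a steady level. The wide ranges were in 5 of 11 fibrillar, 4 of 6 beaded filament, 1 of 9 FACIT and 1 of 3 network genes and in both multiplexins. None of the 4 transmembrane genes had one, nor had Col7a1, Col26a1 or Col28a1.

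**Figure D1:**
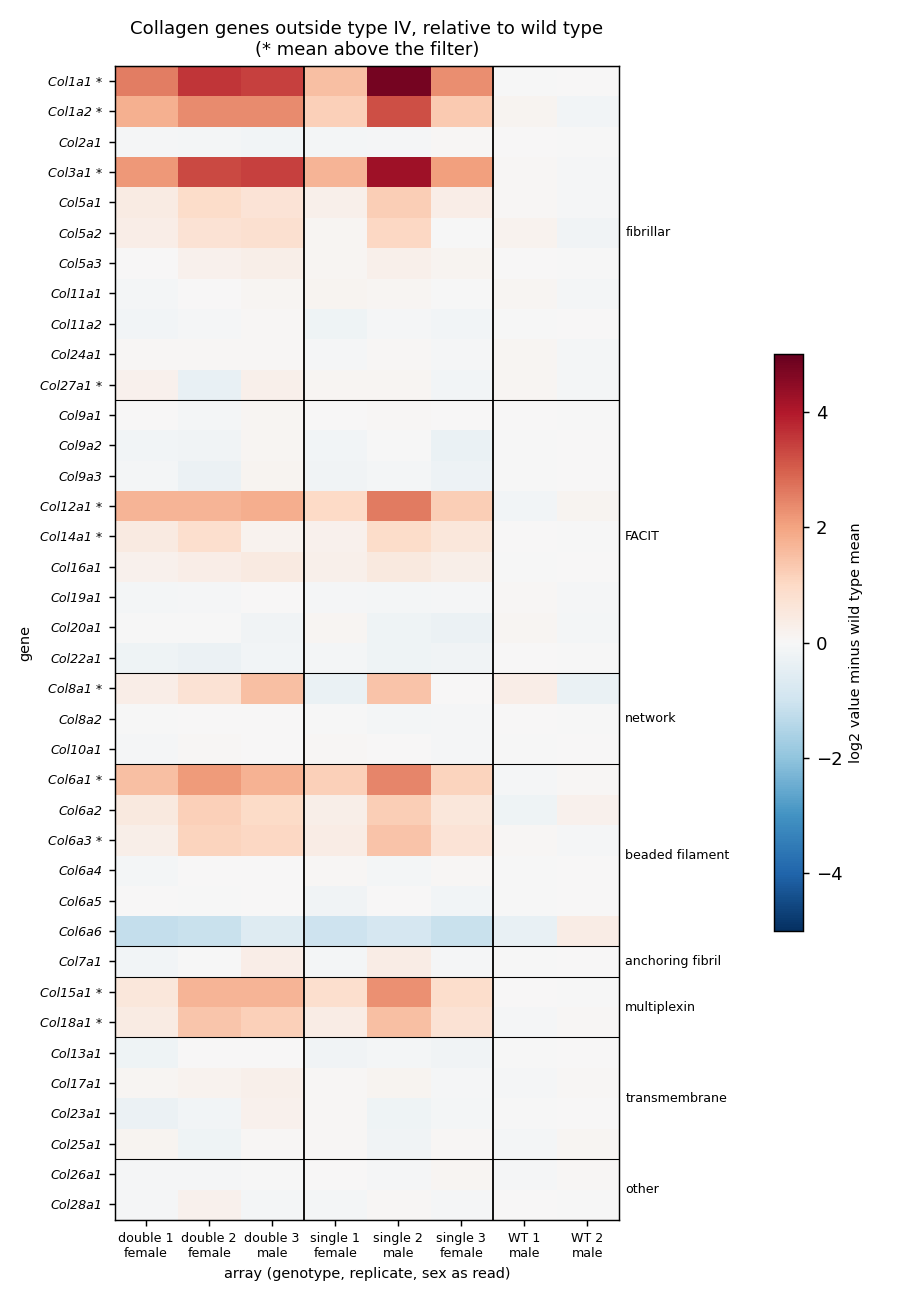
Log2 value minus the wild type mean (colour, red above and blue below) for all 38 collagen genes (rows, by structural class) on the 8 arrays (columns, double mutants, single mutants and wild type, with the sex as read). Asterisks mark the 11 genes whose mean lies above the filter. The rows of Col1a1, Col1a2 and Col3a1 are the reddest, single mutant 2 is the darkest column in them, and Col6a6 is the one clearly blue row.

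The test was run over the genes whose mean on the 8 arrays was above 6.64, which is the 75th percentile over probe sets. This left 7145 genes and 11 of the 38 members. Of these 11, 7 had a wild type mean below that level and passed only through their mutant arrays. They were Col1a1, Col3a1, Col12a1, Col6a1, Col6a3, Col15a1 and Col8a1. By overlap alone, 10 of 11 were higher in all double mutants than in wild type (17.4 percent of tested genes) and 0 lower (28.8 percent), and 9 of 11 were higher in all single mutants (19.3 percent) and 0 lower (29.1 percent). The count of calls among the 11 therefore says little about collagens as a family, and the counts over all 38 come from a fit without the filter. With genotype alone, limma (Benjamini-Hochberg adjusted p under 0.05) called 0 of 11 members higher and 0 lower in either mutant. Of all tested genes 0.056 percent were called higher and 0.028 percent lower in double mutants, and 0.014 percent each way in single mutants. An unadjusted p under 0.05 was reached by 8 of the 11 in double mutants and by 7 in single mutants, all higher, where 8.83 and 9.34 percent of tested genes reached it and were higher. With the term for sex, 9 of 11 were higher in double mutants, where 6.4 percent of all tested genes were, and 9 of 11 in single mutants, where 7.31 percent were. None was lower, where 17.8 and 19.9 percent of all tested genes were lower. In the fit of all 22180 genes with the term for sex, 8 of 38 members were higher in double mutants, against 2.08 percent of all genes, and 7 of 38 in single mutants, against 2.05 percent. No member was lower there, against 4.17 percent in double and 4.86 percent in single mutants. The fit of all genes with genotype alone called 0 of 38 members, where 0.0135 percent of all genes were higher and 0.0316 percent lower in double mutants, and 0.00902 and 0.0225 percent in single mutants. An unadjusted p under 0.05 was reached there by 9 members higher and 2 lower in double mutants, and by 7 higher and 1 lower in single mutants. Over all genes 6.43 percent higher and 7.9 percent lower reached it in double mutants, and 6.32 and 8.75 percent in single mutants.

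The fibrillar chains of types I and III had the largest differences of any member. Col1a1, the α1 chain of type I collagen (chromosome 11, 94936224 to 94953042, GRCm38), measured 8.52, 9.53 and 9.37 in double mutants, 7.48, 10.74 and 8.31 in single mutants, and 5.94 and 6.01 in wild type. The lowest mutant array was 1.47 above the higher wild type array. In limma the double mutant minus wild type difference was 3.17 (SE 0.83, adjusted p = 0.099). The term for sex raised it to 4.23 (SE 0.68, limma adjusted p = 0.0112), an 18.8-fold difference as fitted. That value depends on a fitted effect of sex of -1.60 for female minus male, taken as equal in all groups. The measured gap was smaller. The male double mutant was 3.40 above the wild type mean, and the female double mutants were 3.05 above it on average. For the single mutant limma gave 2.87 (SE 0.83, adjusted p = 0.126), and 3.93 with the term for sex (SE 0.68, adjusted p = 0.0106).

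Col1a2, the α2 chain that joins it in the type I molecule (chromosome 6, 4505618 to 4541543), measured 8.46, 9.06 and 9.03 in double mutants, 7.87, 9.91 and 7.98 in single mutants and 6.80 and 6.55 in wild type. Double mutants lay close together and single mutant 2 lay highest, as for Col1a1. The differences from wild type were 2.17 in double and 1.91 in single mutants, and 2.93 and 2.66 with the term for sex (adjusted p = 0.0108 and 0.0101 in limma). A second Col1a2 probe set of low signal is described in the closing section.

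Col3a1, the chain of type III collagen, the early fibril of wounds (chromosome 1, 45311538 to 45349706), measured 8.54, 9.70 and 9.79 in double mutants, 8.08, 10.64 and 8.43 in single mutants and 6.43 and 6.35 in wild type. Neither mutant group overlapped wild type, and the 2 mutant groups overlapped each other. The differences were 2.95 in double and 2.66 in single mutants, and 3.97 (SE 0.53) and 3.68 (SE 0.53) with the term for sex (adjusted p = 0.0077 and 0.0078 in limma).

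The promoter regions show where transcription of members that were high together begins. RefSeq promoter sequences of GRCm38.p6 matched 30 of the 38 genes. Those of Col1a1, Col12a1, Col14a1, Col5a2, Col2a1, Col9a3, Col22a1 and Col26a1 were not used here. The 250 bases before a RefSeq start site are printed for 4 genes that were higher on all mutant arrays and for Col6a6, which was lower on all of them. They are chr6:4505368-4505617 on the plus strand for Col1a2, chr1:45311288-45311537 on the plus strand for Col3a1, chr10:76726045-76726294 on the minus strand for Col6a1, chr4:47207762-47208011 on the plus strand for Col15a1 and chr9:105828086-105828335 on the minus strand for Col6a6. The gene span of Col15a1 begins at 47207655, so its window lies inside the gene. That of Col6a6 ends at 105828246, so its window lies partly inside. The windows of these genes therefore precede a start within the span. Capitals mark CCAAT and TATAAA, or their complements on the opposite strand.
Col1a2: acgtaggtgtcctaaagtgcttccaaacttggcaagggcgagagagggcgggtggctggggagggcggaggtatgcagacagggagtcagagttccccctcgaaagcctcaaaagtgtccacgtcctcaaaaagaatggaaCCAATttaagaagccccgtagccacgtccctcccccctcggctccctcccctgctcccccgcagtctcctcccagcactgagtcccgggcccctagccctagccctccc
Col3a1: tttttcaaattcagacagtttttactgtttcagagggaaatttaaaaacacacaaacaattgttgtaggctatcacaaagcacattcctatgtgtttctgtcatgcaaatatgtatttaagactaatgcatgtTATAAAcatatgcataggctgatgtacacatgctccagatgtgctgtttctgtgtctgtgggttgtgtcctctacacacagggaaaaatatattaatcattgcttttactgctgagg
Col6a1: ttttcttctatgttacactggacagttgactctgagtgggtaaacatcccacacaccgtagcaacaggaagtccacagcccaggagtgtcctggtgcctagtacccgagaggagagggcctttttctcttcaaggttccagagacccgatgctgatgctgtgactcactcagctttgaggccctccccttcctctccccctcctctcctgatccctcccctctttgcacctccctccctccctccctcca
Col15a1: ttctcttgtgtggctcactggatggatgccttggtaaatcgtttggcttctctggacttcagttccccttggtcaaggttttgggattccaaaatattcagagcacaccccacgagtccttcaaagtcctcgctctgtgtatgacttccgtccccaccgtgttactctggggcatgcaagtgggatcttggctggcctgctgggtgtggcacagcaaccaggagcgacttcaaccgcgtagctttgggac
Col6a6: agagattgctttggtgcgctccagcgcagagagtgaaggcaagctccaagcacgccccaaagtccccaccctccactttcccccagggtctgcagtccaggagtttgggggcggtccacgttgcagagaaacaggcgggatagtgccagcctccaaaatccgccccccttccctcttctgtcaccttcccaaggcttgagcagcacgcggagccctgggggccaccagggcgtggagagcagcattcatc

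In these windows CCAAT occurred in Col1a2, 104 bases before the start, and TATAAA in Col3a1, 111 bases before it. Col6a1, Col15a1 and Col6a6 held neither. CCAAT was found in 10 of the 33 member promoters, since 3 genes had a second start, and in 33.8 percent of all 32851 promoters. TATAAA was found in 5 of 33 and in 12.4 percent of all. GGGCGG, the GC box, was found in 19 of 33 member promoters and in 32.7 percent of all, with copies in Col1a2 and Col6a6 and none in Col3a1, Col6a1 or Col15a1. None of these 3 motifs occurred in all 4 printed promoters of genes that were higher. CAGAC was found in 16 of 33 and in 42.2 percent of all. All motifs were searched on both strands, none contains another, and a match is a description of the sequence only.

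The other fibrillar genes differed less between genotypes or hardly varied. Col5a1, a chain of the type V collagen that nucleates type I fibrils, measured 6.53, 7.05 and 6.81 in double mutants, 6.39, 7.39 and 6.46 in single mutants and 6.19 and 6.09 in wild type. Its partner Col5a2 measured 6.15, 6.53 and 6.61 in double mutants, 5.92, 6.84 and 5.80 in single mutants and 6.0 and 5.64 in wild type, so that single mutants overlapped wild type. Both had means below the filter level, and in the fit of all genes with the term for sex neither passed in limma (for double mutants, 0.99 with adjusted p = 0.118 for Col5a1 and 1.03 with adjusted p = 0.0738 for Col5a2). Col5a2 lies 24.6 kb from Col3a1 on chromosome 1, which differed by 3.97 in the same comparison. Col27a1, a fibrillar chain best known from cartilage, passed the filter and did not separate the groups. It measured 7.01, 6.43 and 7.07 in double mutants, 6.91, 6.91 and 6.65 in single mutants and 6.91 and 6.68 in wild type. Its difference with the term for sex was 0.20 in double mutants, with a 95% interval of -0.34 to 0.73. Col2a1, Col11a1 and Col11a2, chains of cartilage collagens, and Col5a3 and Col24a1 ranged by 0.5 or less over the 8 arrays.

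Among the FACIT collagens 1 gene stood out in size. Col12a1, a large fibril-associated chain (chromosome 9, 79598987 to 79721141), measured 7.35, 7.38 and 7.48 in double mutants, 6.65, 8.25 and 6.91 in single mutants and 5.54 and 5.78 in wild type. The double mutants lay within 0.13 of each other, between the female single mutants and single mutant 2. The difference from wild type was 1.74 in double mutants (SE 0.42, adjusted p = 0.0838 in limma) and 1.61 in single mutants (SE 0.42, adjusted p = 0.115 in limma). Adding the term for sex made it 2.27 and 2.14 (adjusted p = 0.0108 and 0.0096 in limma), 4.82-fold and 4.40-fold as fitted. The male double mutant was 1.82 above the wild type mean and the female double mutants 1.70 on average. In single mutants these gaps were 2.59 and 1.11.

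Col14a1, which sits on type I fibrils, measured 7.71, 8.09 and 7.43 in double mutants, 7.48, 8.19 and 7.81 in single mutants and 7.29 and 7.23 in wild type. All mutant arrays were above wild type, with a gap of 0.14, and the gene passed neither fit (0.51 and 0.59 with the term for sex, adjusted p = 0.229 and 0.164 in limma). Col16a1 measured 5.63, 5.76 and 5.86 in double mutants, 5.66, 5.90 and 5.72 in single mutants and 5.40 and 5.43 in wild type. It was below the filter, and in the fit of all genes with the term for sex it was higher by 0.46 in double and 0.47 in single mutants (adjusted p = 0.0306 and 0.0283 in limma). Col22a1 was the FACIT gene that lay below wild type on all mutant arrays, by 0.22 in double and 0.15 in single mutants, and did not pass. Col9a1, Col9a2, Col9a3, Col19a1 and Col20a1 ranged by at most 0.43 over the arrays.

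The type VI genes split by chain. Col6a1, Col6a2 and Col6a3 form the classical type VI molecule. Col6a1 (chromosome 10, 76708792 to 76726044) measured 7.90, 8.53 and 8.13 in double mutants, 7.57, 8.82 and 7.50 in single mutants and 6.34 and 6.45 in wild type. Its lowest mutant array was 1.04 above the higher wild type array. The differences were 1.79 in double and 1.57 in single mutants, and 2.19 and 1.97 with the term for sex (adjusted p = 0.0114 and 0.0127 in limma).

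Col6a3 measured 6.68, 7.53 and 7.43 in double mutants, 6.77, 7.83 and 7.07 in single mutants and 6.44 and 6.36 in wild type. With the term for sex, over genes above the filter, it was higher by 1.22 and 1.23 (adjusted p = 0.0288 and 0.0263 in limma). In the fit of all genes with that term it passed in neither mutant. Col6a2, which lies 85.2 kb from Col6a1, measured 6.55, 7.25 and 7.01 in double mutants, 6.32, 7.28 and 6.62 in single mutants and 5.81 and 6.27 in wild type. Its mean of 6.637 lay just under the filter level of 6.640. The nearest member above that level was Col8a1 at 6.800. In the fit of all genes with the term for sex Col6a2 exceeded wild type by 1.20 and 1.0 and did not pass (adjusted p = 0.0986 and 0.14 in limma).

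Col6a6, a later-described type VI chain on chromosome 9 (105689417 to 105828246), went the other way. It measured 5.62, 5.70 and 6.17 in double mutants, 5.78, 5.96 and 5.70 in single mutants and 6.44 and 7.18 in wild type. No mutant array reached the lower wild type array, and the 2 wild type mice differed by 0.74. The difference was -0.98 in double and -1.0 in single mutants in the fit of all genes, and -0.74 and -0.75 with the term for sex, and it passed in neither (adjusted p between 0.139 and 0.178 in limma). Its neighbours Col6a5 and Col6a4, 27.8 kb and a further 27.9 kb along the chromosome, stayed between 4.72 and 4.92 on all arrays.

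Both multiplexins, whose C-terminal fragments are known as restin and endostatin, were higher in the mutants. Col15a1 (chromosome 4, 47207655 to 47313167) measured 6.46, 7.57 and 7.56 in double mutants, 6.70, 8.15 and 6.77 in single mutants and 5.90 and 5.85 in wild type. Col18a1 (chromosome 10, 77052178 to 77166530), a component of kidney basement membranes, measured 7.61, 8.58 and 8.41 in double mutants, 7.58, 8.70 and 7.92 in single mutants and 7.14 and 7.27 in wild type. In both genes double mutant 1 was the lowest of its group and no mutant array reached down to wild type. In the fit with sex over genes above the filter, Col15a1 was higher by 1.97 in double and 1.98 in single mutants (adjusted p = 0.0146 and 0.0132 in limma). Col18a1 was higher there by 1.42 and 1.28 (adjusted p = 0.0261 and 0.0319 in limma). In the fit of all genes with the term for sex neither gene passed in either mutant. For single mutants the adjusted p there was 0.0506 for Col15a1 and 0.0994 for Col18a1 in limma.

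Col8a1, a chain of the type VIII network of vessels (chromosome 16, 57624256 to 57754737), had another pattern. It measured 6.68, 7.05 and 7.85 in double mutants, 6.01, 7.77 and 6.36 in single mutants and 6.66 and 6.01 in wild type. The 2 male mutants were the highest arrays, and the female single mutants lay within or at the lower edge of the wild type range. With genotype alone the difference was 0.86 in double and 0.38 in single mutants (adjusted p = 0.381 and 0.682 in limma). With the term for sex it was 1.72 and 1.23 (adjusted p = 0.0113 and 0.0226 in limma). In the fit of all genes with that term Col8a1 passed in double mutants only. Col8a1 was the 1 member of 11 whose fitted effect of sex passed, at -1.28 for female minus male (SE 0.23, adjusted p = 0.0192 in limma), where 1.97 percent of tested genes were lower and 8.22 percent higher in females. The fit estimates that effect from the mutants, since no wild type mouse was read as female. Col8a2 and Col10a1, the other network genes, ranged by 0.14 and 0.10.

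Col7a1, the chain of the anchoring fibrils under epithelium, differed little by genotype alone. It measured 5.34, 5.43 and 5.81 in double mutants, 5.38, 5.83 and 5.41 in single mutants and 5.45 and 5.5 in wild type, where the 2 male mutants were again the highest. In the fit of all genes with the term for sex it was higher by 0.34 and 0.36 (adjusted p = 0.0397 and 0.0356 in limma). It is named here, after its values were seen, because it is among the members that fit called. The others called in that fit were Col1a1, Col1a2, Col3a1, Col12a1, Col16a1 and Col6a1 in both mutants and Col8a1 in double mutants. Of the 27 members below the filter, 23 had mutant means within 0.5 of wild type in both mutants.

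**Figure D2:**
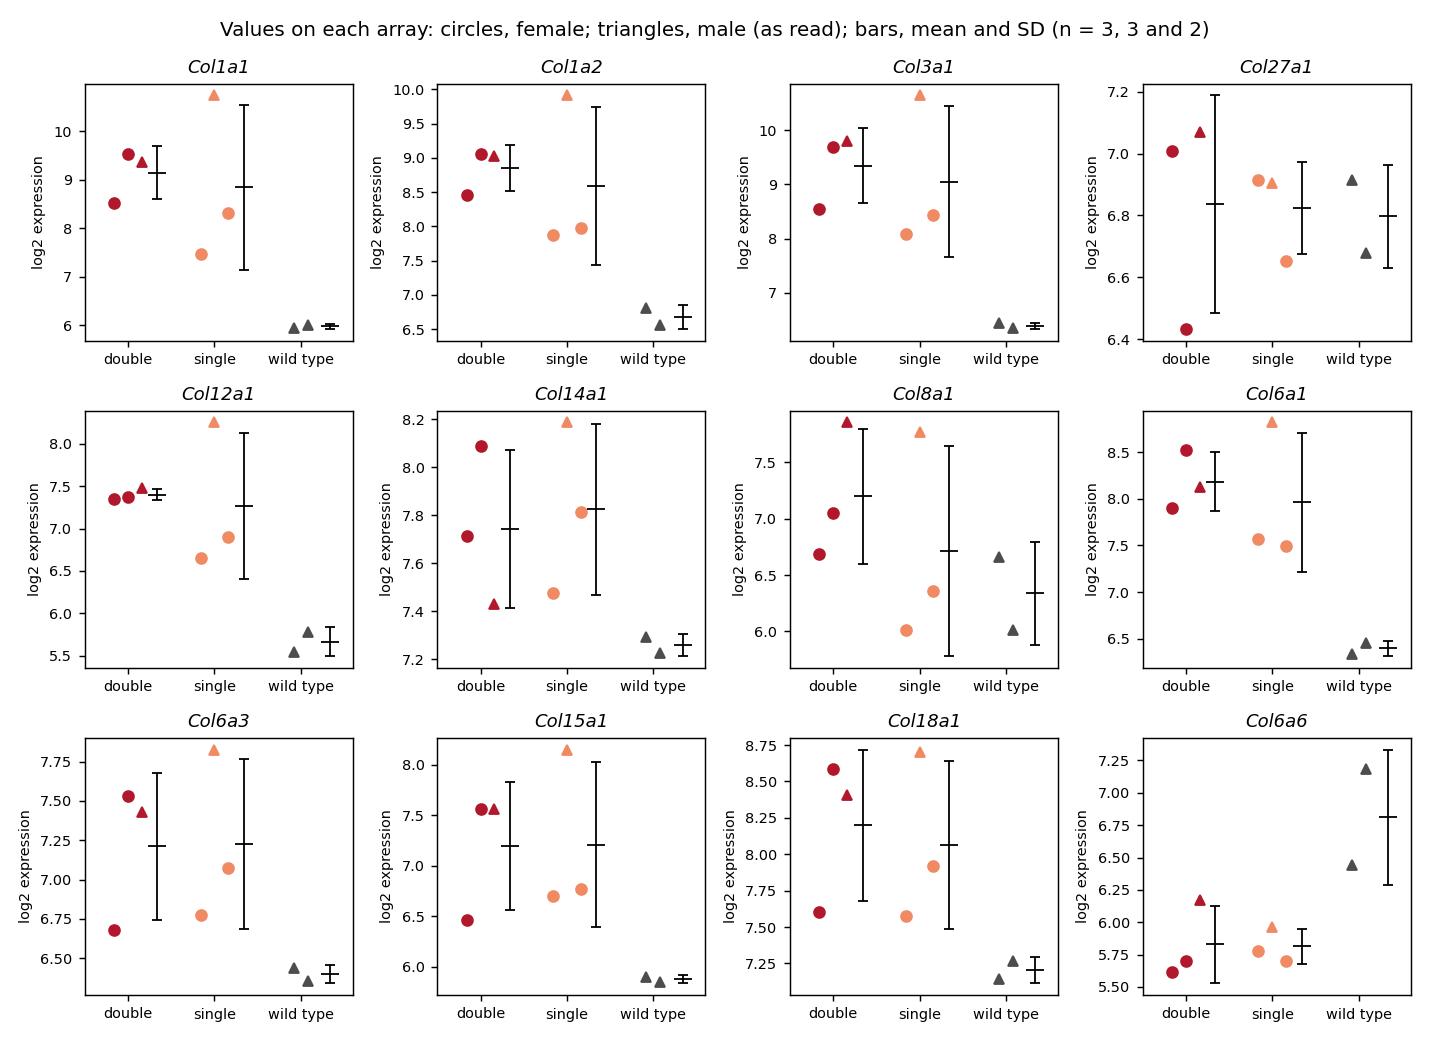
Log2 expression (y axis, each gene on its own scale) on every array for the 11 collagen genes above the filter and Col6a6, with double mutants left, single mutants in the middle and wild type right (x axis). Circles are females and triangles males as read, and bars give the mean and SD (n = 3, 3 and 2). Single mutant 2, the triangle of that group, is the highest point for 9 of the 11 genes.

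The spread among single mutants came from single mutant 2. This male was the highest of the 8 arrays for 9 of the 11 members, where it was the highest for 18.3 percent of tested genes, and double mutant 3 was the highest for Col8a1 and Col27a1. For Col1a1 the SD was 0.55 in double and 1.70 in single mutants, against 0.05 in wild type. Without single mutant 2, the single mutant exceeded wild type by 1.92 for Col1a1 and 1.86 for Col3a1 with genotype alone (adjusted p = 0.0891 and 0.0959 in limma). Adding the term for sex, these were 2.26 and 2.54 without it, and 0 of 11 members passed in single mutants, against 9 with it. In that fit limma called 0 of the 7145 genes in single mutants, collagens or not. In double mutants 7 of 11 were higher with the term for sex without that array, where 4.49 percent of tested genes were. With genotype alone and that array left out, Col1a1, Col1a2, Col3a1, Col12a1 and Col6a1 were higher in double mutants (3.17 for Col1a1, adjusted p = 0.00507 in limma), where 8.26 percent of tested genes were called in either direction. Without wild type 2 the term for sex gave 0 of 11 calls in either mutant, where 0.518 percent of tested genes were higher in double and 0.35 percent in single mutants. Without wild type 1 it gave 6 in double and 7 in single mutants, where 2.86 and 3.58 percent were higher. Without double mutant 3 it gave 10 in each mutant, where 8.03 and 10 percent were higher.

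The calls over all 38 members with the term for sex rested on the same arrays. Without single mutant 2, 5 of 38 were higher in double mutants (Col1a1, Col1a2, Col3a1, Col12a1 and Col6a1), where 1.37 percent of all genes were, and 0 in single mutants, where 0 of 22180 genes were called. Without wild type 2 no gene was called in either mutant. Without wild type 1 no member was higher, where 0.325 percent of all genes were in double and 0.46 percent in single mutants, and Col6a6 was lower in both, at -1.11 and -1.12 (adjusted p = 0.0482 and 0.0401 in limma). Without double mutant 3, 7 members were higher in double and 8 in single mutants, where 4.34 and 5.3 percent of all genes were. Col7a1 passed in neither mutant once any 1 of these 4 arrays was left out, and Col16a1 passed only in single mutants without double mutant 3 (0.49, adjusted p = 0.0329 in limma).

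**Figure D3:**
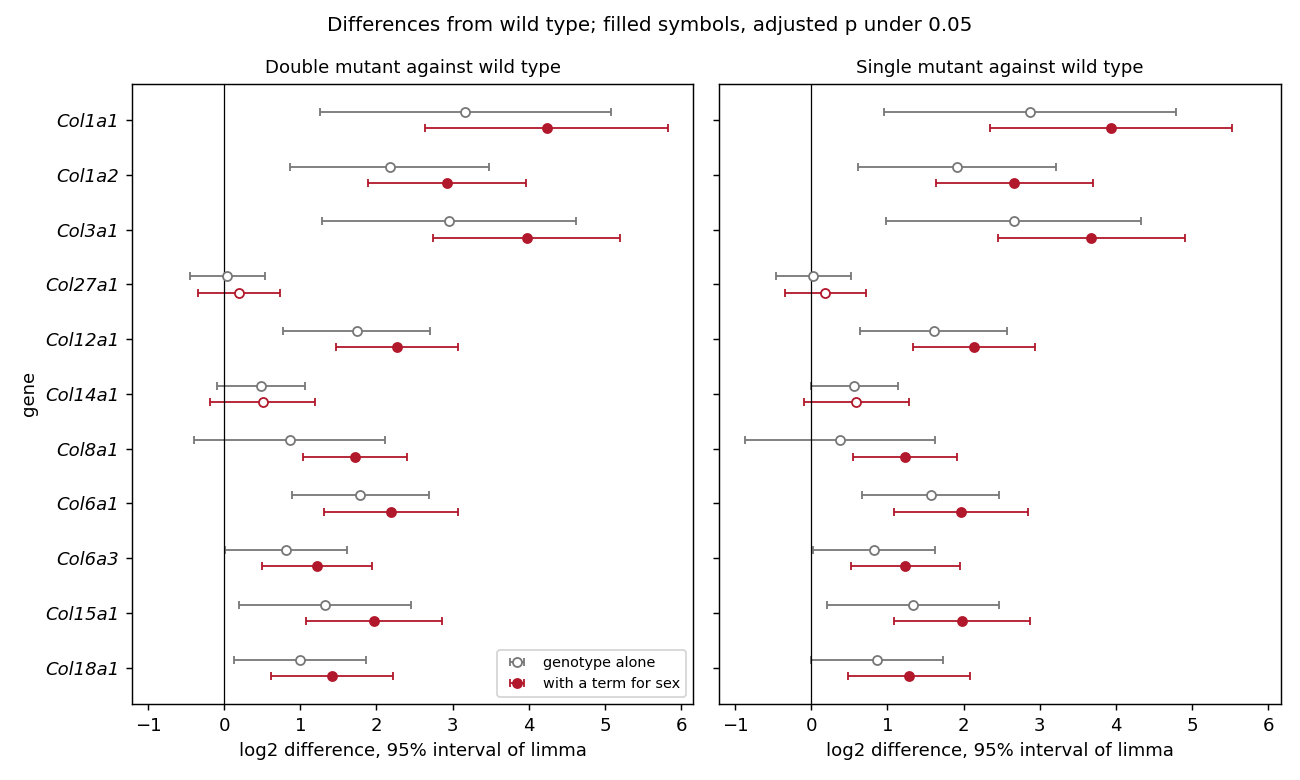
Log2 difference from wild type with its 95% interval (x axis) for the 11 collagen genes above the filter (y axis), for double mutants (left) and single mutants (right). Grey is the fit of genotype alone and red the fit with a term for sex, and filled symbols have an adjusted p under 0.05. All red symbols are filled except those of Col27a1 and Col14a1, and no grey symbol is.

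The differences with the term for sex are to be read against the median of all tested genes, which was itself -0.15 in both mutants in that fit. It was -0.04 after cyclic loess and between -0.04 and -0.06 after quantile normalization. The median over the 11 members was 1.97 in double and in single mutants with the term for sex, and 1.32 and 1.33 with genotype alone. Over all 38 members without the filter it was 0.09 and 0.11 with the term for sex, against -0.02 and -0.01 for all genes. Within males alone, where each mutant is 1 mouse against 2 wild type mice, Col1a1 was higher by 3.40 in double and 4.77 in single mutants, and Col3a1 by 3.40 and 4.25. The female mutants against the male wild type mice gave 3.05 and 1.92 for Col1a1 and 2.73 and 1.86 for Col3a1.

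The double mutant was set against the single mutant to describe collagen transcripts in an Alport kidney with and without osteopontin. No member passed the test. Of 11 members 0 were called with or without the term for sex, as did 0 percent of the 7145 tested genes in limma, while 63 genes had an unadjusted p under 0.05 and were higher and 41 were lower with genotype alone. No member had such a p in either fit. The difference was 0.30 for Col1a1 with a 95% interval of -1.41 to 2.01, 0.29 for Col3a1 with an interval of -1.20 to 1.79, and 0.26 for Col1a2 with an interval of -0.90 to 1.43. These intervals, with genotype alone, hold differences of more than a factor of 2 in either direction for Col1a1 and Col3a1. A difference of that size was therefore not excluded in that fit. With the term for sex the interval for Col1a1 was -0.90 to 1.5, which holds a rise but not a fall by a factor of 2. Without single mutant 2 the difference with genotype alone was 1.25 for Col1a1 and 1.09 for Col3a1 (adjusted p = 0.474 and 0.577 in limma), and again no member passed. The largest difference among the 11 in the full set was that of Col8a1 at 0.49, with an interval of -0.03 to 1.0 with the term for sex. Double and single mutants overlapped for all 11 members above the filter, where 2.02 percent of tested genes were higher and 3 percent lower without overlap. Of the 38, Col24a1 alone, named after its values were seen, was higher in all double mutants (3.32 percent of all genes were), by 0.10, and none was lower (3.9 percent).

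Within the sexes the difference between the mutants ran in opposite directions. In females, with 2 mice per mutant, the double mutant was higher for 10 of 11 members. In males, with 1 mouse per mutant, it was lower for 9 of 11, and for these 9 it was higher in females. Over all tested genes 33.1 percent were higher in females and lower in males. Col1a1 differed by 1.13 in females and by -1.37 in males, Col1a2 by 0.83 and -0.88, and Col12a1 by 0.59 and -0.77. A test of the difference between the sexes, from a fit of genotype by sex with 3 residual degrees of freedom, gave 2.5 (SE 0.64, adjusted p = 0.162 in limma) for Col1a1. For Col12a1 it gave 1.36 (SE 0.26, adjusted p = 0.0937 in limma), the smallest adjusted p among the members. No gene of 7145 passed (0 percent), and 6 of the 11 members had an unadjusted p under 0.05, as had 544 genes with a positive and 369 with a negative difference. The male side of each value is 1 array per mutant, and single mutant 2 is one of them.

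**Figure D4:**
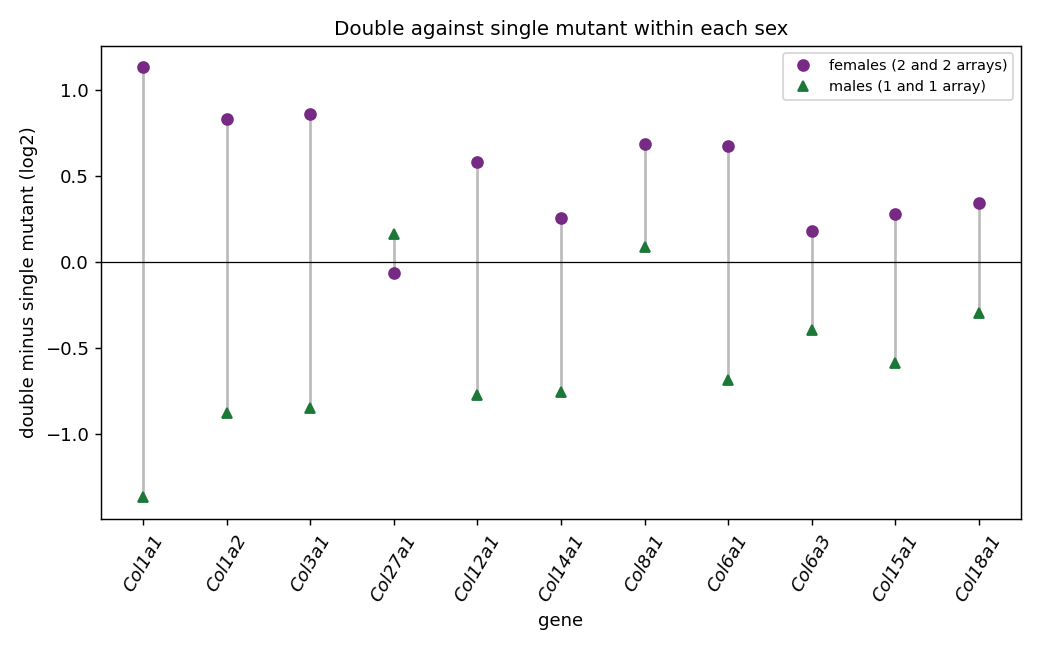
Double minus single mutant (y axis, log2) within females (circles, 2 arrays per mutant) and within males (triangles, 1 array per mutant) for the 11 collagen genes above the filter (x axis). For 9 genes the circle is above 0 and the triangle below it, Col8a1 is above 0 in both and Col27a1 runs the other way.

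The genes that make and use collagen were read beside the chains. Procollagen processing and crosslinking enzymes and fibril regulators had 16 measured and 7 tested members, all 7 above wild type in both mutants. Lox and Bmp1 had both wild type arrays below the filter level and passed it only through their mutant arrays. With the term for sex 37.8 percent of tested genes were above wild type in double and 39.3 percent in single mutants. In that fit 4 members were higher in double and 2 in single mutants, where 6.4 and 7.31 percent of tested genes were called higher. None was called with genotype alone. Lox, which crosslinks collagen, measured 8.56, 7.90 and 7.38 in double mutants, 6.84, 8.14 and 6.71 in single mutants and 6.07 and 5.53 in wild type, and was higher by 2.32 in double mutants (adjusted p = 0.0262 in limma). Bmp1, the protease that trims the C-terminal end of fibrillar procollagens, was higher by 1.68 and 1.39 (adjusted p = 0.0108 and 0.011 in limma). Sparc, a collagen-binding protein, was higher by 1.37 and 1.18 (adjusted p = 0.0162 and 0.0219 in limma). Loxl1 was higher by 1.51 in double mutants (adjusted p = 0.0319 in limma) and differed by 1.13 in single mutants (adjusted p = 0.0684 in limma). The median of the list was 1.37 in double and 1.13 in single mutants, against -0.15 for all tested genes.

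The enzymes and chaperones that modify and fold procollagen inside the cell had 21 measured and 14 tested members. With the term for sex 1 was higher and 3 were lower in double mutants, and 1 was higher and 2 were lower in single mutants. Over all tested genes 6.4 percent were higher and 17.8 percent lower in double mutants, and 7.31 and 19.9 percent in single mutants. The counts in this list were near those shares. The median of the list was -0.16 and -0.22, against -0.15 for all tested genes. Colgalt1, which adds galactose to collagen, was higher by 0.70 and 0.75 (adjusted p = 0.0423 and 0.0326 in limma). P3h2, a prolyl 3-hydroxylase, was lower at -1.05 and -1.10 (adjusted p = 0.0128 and 0.0106 in limma), though with genotype alone it differed by -0.09 and -0.14. Its arrays read 10.19, 10.06 and 8.92 in double mutants, 10.08, 8.56 and 10.39 in single mutants and 9.75 and 9.89 in wild type, so the male mutants alone were below wild type. Serpinh1, the collagen chaperone HSP47, differed by 0.86 and 0.78 without passing (adjusted p = 0.082 and 0.101 in limma). Of the 6 tested collagen receptors, 2 were higher in each mutant with the term for sex, against the same 6.4 and 7.31 percent. They were the integrin chain Itgb1 at 0.75 and 0.66 and the endocytic receptor Mrc2 at 1.51 and 1.5. Ddr2, a receptor kinase for fibrillar collagen, differed by 1.41 and 1.26 without passing. Mrc2 and Ddr2 had both wild type arrays below the filter level. With genotype alone no gene of these lists passed in either mutant. Without single mutant 2, none passed in single mutants with the term for sex, and Bmp1, Lox, Sparc, Itgb1, Mrc2 and P3h2 did in double mutants. There 4.49 percent of tested genes were higher and 11.8 percent lower in double mutants, and 0 percent were called in single mutants. Without double mutant 3, 5 of 7 processing genes and 3 of 6 receptors were higher in each mutant. In that fit 8.03 percent of tested genes were higher in double and 10 percent in single mutants. Serpinh1 and Ddr2 passed there in both mutants. Without wild type 2 none passed in either mutant, and without wild type 1 Bmp1, P3h2 and Ctage5 did in both.

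Markers of some other cell types also differed between the mutants and wild type. All 8 tested fibroblast, pericyte and smooth muscle markers were above wild type in double mutants and 7 of 8 in single mutants. Of the 8, Fbln1 had both wild type arrays below the filter level, and Tagln, Myh11 and Des had 1. With the term for sex 3 were higher in each mutant (Tagln, Acta2 and Pdgfra), where 6.4 and 7.31 percent of tested genes were. With genotype alone 1 was higher in double mutants and 0 in single mutants. Of these 3, with the term for sex, Tagln alone was higher in both without wild type 2, and none in single mutants without single mutant 2. Without wild type 1 Tagln was higher in both and Acta2 in double mutants, and without double mutant 3, 6 of the 8 were higher in each. The mean of the 14 measured markers lay between 7.03 and 7.51 in double mutants and between 6.90 and 7.37 in single mutants, against 6.43 and 6.52 in wild type. Within the double mutants it was 7.51, 7.48 and 7.03, an order unlike that of Col1a1 at 8.52, 9.53 and 9.37. Within the single mutants it was 6.90, 7.37 and 7.09, the order of Col1a1 at 7.48, 10.74 and 8.31. All 9 tested macrophage markers were above wild type in both mutants. With genotype alone 40.8 percent of tested genes were above it in double and 42.8 percent in single mutants. The filter set this in part. Cd68, Lyz2, C1qa, Mrc1, Cx3cr1 and Cd14 had both wild type arrays below its level and passed only through their mutant arrays. With the term for sex 7 of the 9 were higher in each mutant. In that fit 6.4 percent of tested genes were higher in double and 7.31 percent in single mutants. With genotype alone 0 of the 9 passed. Without single mutant 2 these 7 were higher in double mutants and 0 in single mutants, without wild type 2 only Lyz2 was, in both, and without wild type 1 Ctss and Lyz2 were, in both. The mean of the 11 measured lay between 7.93 and 8.26 in double mutants and between 7.18 and 8.60 in single mutants, the highest being single mutant 2, against 6.28 and 6.44 in wild type. The mean of the 10 proximal tubule markers lay between 10.87 and 11.16 in double and between 10.15 and 11.36 in single mutants, the lowest being single mutant 2, against 11.59 and 11.63 in wild type. The part of these markers in the collagen differences was not tested. Of 5 tested loop and distal tubule markers 2 were lower in each mutant with the term for sex. In that fit 17.8 percent of tested genes were lower in double and 19.9 percent in single mutants. Of 3 podocyte markers and 1 fat marker none passed. The 9 lymphocyte markers, all below the filter, averaged 5.22 to 6.01 in double and 5.09 to 5.33 in single mutants, against 5.04 in wild type.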

How the data were processed

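Whole-kidney RNA of 8 mice was measured on 1 array each. The authors deposited log2 values, a unit read from their range, and these were used as deposited. How the authors normalized and summarized the probes was not stated in the labels. The osteopontin gene is not reported here. Of 33793 probe sets, 23521 named 1 gene, 1814 several and 8458 none. A gene was read from its highest-mean probe set, and 3 members had more than 1. Positions and promoters are those of RefSeq for GRCm38.

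Groups were compared by lmFit and eBayes (limma 3.58.1, R 4.3.3) in 1 model of 3 groups with 5 residual degrees of freedom, and again with a term for sex with 4, over the 7145 genes with a mean above the 75th percentile. P values were two-sided, with Benjamini-Hochberg adjustment across the tested genes. Replicates are separate mice by the labels. The fits were tested on simulated data. Figures used matplotlib 3.10.9 (Python 3.11.15). Precision is limited by the small number of arrays.

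The members and lists were chosen with earlier results of these data known. Members above the filter were named with all values, and 6 below it by the largest difference. Of the other lists, up to 5 genes each with the smallest p were named. The alternatives were the filter, the scaling, the prior, array weights, the probe set rule, the groups in the fit, the replicate block, males alone and leaving out each array.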

Additional observations from a re-analysis of the deposited data

Results flagged for a closer look

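Col1a2 has a second probe set of low signal that the comparisons did not use. It measured 4.65, 5.48 and 5.03 in double mutants, 4.70, 5.54 and 4.80 in single mutants and 4.57 and 4.46 in wild type. Every mutant array was above both wild type arrays, which is why it is listed here. The mean difference from wild type was 0.53 in double and 0.49 in single mutants, and it was not tested. The second probe sets of Col5a1 and Col6a1 overlapped wild type in at least 1 mutant group. That of Col5a1 differed from wild type by -0.04 in double and -0.09 in single mutants, unlike the one used. That of Col6a1 differed by 0.56 and 0.23. Groups of 2 and 3 arrays are too small for a check of single outlying arrays.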

How the results depend on the processing

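With genotype alone, 0 of 11 members passed in either mutant against wild type, and this held under each filter, each scaling, the trend with a robust prior and the mean of probe sets. Array weights gave 6 calls in double and 5 in single mutants (17.8 and 11.3 percent of tested genes called). A fit of only the 2 groups compared gave 5 and 0 (4.81 and 0 percent). Male arrays alone gave 9 and 10 (10.2 and 23.2 percent), with 1 mouse per mutant and the spread of 2 wild type mice, so these counts carry no check against the spread among mutants. Leaving out each array in turn gave between 0 and 5 calls in double mutants and 0 in single mutants. With the term for sex there were 9 calls in each mutant, where 24.2 percent of tested genes were called in double and 27.2 percent in single mutants. The scalings, prior and weights gave 7 to 10 of 11, where 18.4 to 26.5 percent of tested genes were called in double and 14.6 to 28.1 percent in single mutants. The mean of probe sets gave 7 of 9 (24.6 and 27.5 percent of genes). No filter gave 8 and 7 of 38 (6.25 and 6.91 percent), and the 50th percentile filter 12 and 10 of 26 (16.3 and 17.7 percent). Leaving out each array gave 0 to 10 of 11, with 0.98 to 22.9 percent of genes called in double and 0 to 30 percent in single mutants. The wild type array left alone when the other is dropped is assumed to vary like the other groups. The causes were not tested. Double against single mutant, and the test between the sexes, gave 0 calls under all settings run. No call changed sign when its own fit was repeated. Col8a1 in single mutants, 1.23 with the term for sex, was -0.15 with genotype alone without single mutant 2 and -0.08 with array weights. Deviations of same-numbered mutants correlated at 0.256, -0.339 and -0.577 over the tested genes. Those of single mutant 2 and double mutant 3, which differ in number, correlated at 0.543. With so few arrays and these 2 standing apart, such values cannot tell whether the replicate numbers pair the mice. With the replicate number as a block there were 0 calls with genotype alone (0 percent of tested genes). With the term for sex there were 9 in double and 8 in single mutants (25.6 and 27.7 percent of tested genes).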
